A study of Mus musculus with 12 samples.

Results

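The oligodendrocyte lineage transcription factors were followed in cultured mouse hippocampal neurons after knock down (KD) of *Neuid*, a neuron-enriched long noncoding RNA that the mouse annotation lists as Gm10419. They were chosen by gene symbol alone: *Olig1*, *Olig2*, *Sox10*, *Sox8*, *Nkx2-2*, *Nkx6-2*, *Myrf*, *Zfp488* and *Sox6*, which are 9 of the 55471 genes in the count table. Total RNA was sequenced from wild-type (WT) primary hippocampal cultures, prepared from CD1 embryos of mixed sex at embryonic day 17, that had received lipid nanoparticles with either a control gapmer (Control, 6 libraries) or a *Neuid* gapmer (*Neuid* KD, 6 libraries) at day in vitro 7. RNA was taken at day in vitro 10 in both groups. A gapmer is an antisense oligonucleotide that directs RNase H to its target RNA, and both groups carried the nanoparticles and a gapmer. Each group rested on 1 gapmer sequence, and the labels do not say whether the 6 libraries of a group came from separate cultures, so the p-values measure the spread between these libraries, which may be technical.

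Oligodendrocytes arise from dividing precursor cells, and their fate is set by a small network of DNA-binding proteins. The basic helix-loop-helix factors *Olig1* and *Olig2* mark the lineage, the homeodomain factors *Nkx2-2* and *Nkx6-2* act in patterning and in the timing of maturation, the SoxE factors *Sox8* and *Sox10* keep precursors in the lineage and turn on myelin genes, and the SoxD factor *Sox6* holds differentiation back. *Myrf* and *Zfp488* act later, when precursors become myelinating cells. Several of these genes are also used outside the lineage, *Olig1*, *Olig2* and *Sox8* in other glia and progenitors and *Sox6* in interneurons of the medial ganglionic eminence.

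Of the 9 factors, *Olig2*, *Olig1*, *Sox8* and *Sox6* rose in *Neuid* KD and none fell. The increase was largest for *Olig2* (3.21-fold) and smallest for *Sox6* (1.98-fold). *Sox10*, *Nkx2-2*, *Nkx6-2*, *Myrf* and *Zfp488* did not pass the test, and their mean levels were under 3 CPM in both groups. CPM is reads per 1000000 reads of the library, scaled by the trimmed mean of M-values (TMM) of edgeR. A gene passed where the adjusted p of edgeR's quasi-likelihood test (Benjamini-Hochberg over the 19578 genes with enough reads to be tested, threshold 0.05) was below the threshold. All 9 factors had enough reads to be tested. Over all genes tested, 6.31% (1235 genes) passed as higher and 2.42% (473) as lower in *Neuid* KD, 8.72% in all, so 4 of 9 stood beside a background of 6.31%. With upper-quartile scaling in place of TMM 1049 genes passed as higher and 1259 as lower, and the same 4 factors were higher. The median log2 fold change was 0.09 over the 9 factors and -0.03 over all genes tested.

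**Figure D1:**
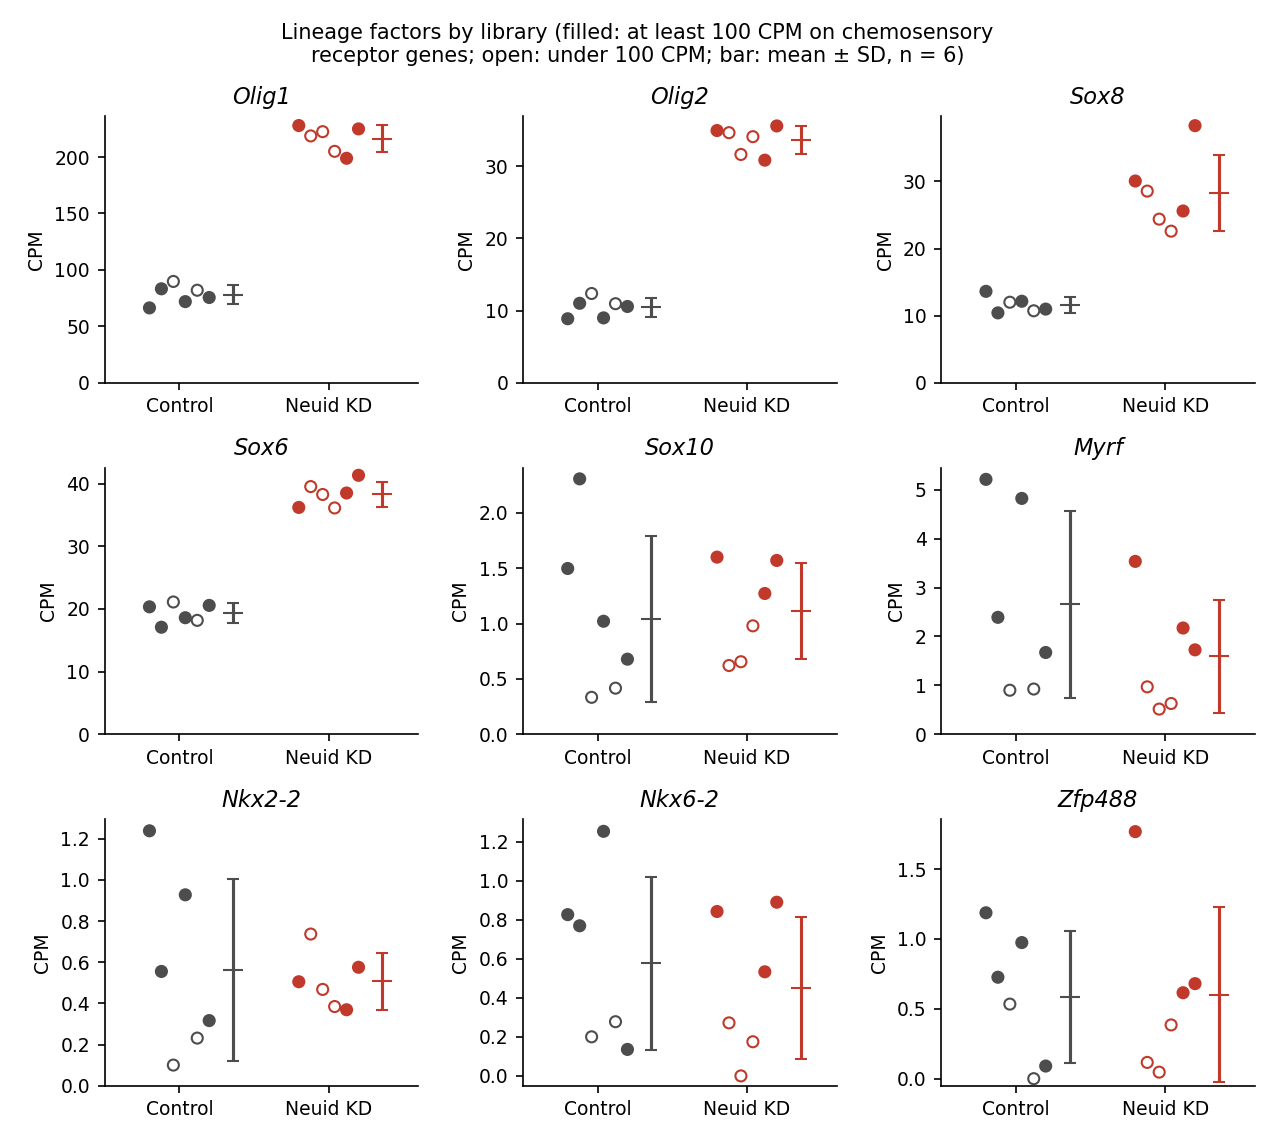
CPM of each lineage factor (linear y axis, separate scale in each panel) in the 6 Control (grey) and 6 *Neuid* KD (red) libraries. Points are libraries in order of their number, filled where chemosensory receptor genes took at least 100 CPM and open where they took less. Bars show mean ± SD. The groups are apart for *Olig1* (66.4 to 89.8 against 199 to 228 CPM), *Olig2*, *Sox8* and *Sox6* and overlap for the other 5 factors.

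The libraries held 18002585 to 30914714 reads in Control and 11152556 to 30573480 in *Neuid* KD, so that 1 read was worth 0.0333 to 0.0835 CPM. *Neuid* itself, which checks the labels, fell from 28.4 ± 2.03 CPM (SD, n = 6) to 8.05 ± 1.13 CPM (n = 6), which is -1.81 on the log2 scale (edgeR adjusted p = 1.32e-10). Reads on 2014 chemosensory receptor genes (olfactory, vomeronasal and taste receptors), which serve sensory epithelia and are used here as a measure of background reads, took 26.7 to 667 in Control against 27.1 to 617 CPM in *Neuid* KD. They took at least 100 CPM in 4 Control and 3 *Neuid* KD libraries, and less in 2 Control and 3 *Neuid* KD libraries. The libraries held reads of both neuron and astrocyte markers. Neuron markers summed to 6351 to 7446 in Control against 6267 to 7399 CPM in *Neuid* KD. None of the 11 passed the test, beside 8.72% of all genes tested. Astrocyte markers summed to 2026 to 2566 in Control against 4951 to 5520 CPM in *Neuid* KD. Of the 14 tested 13 were higher, beside 6.31% of all genes tested, and none of the 15 was at 0 in every library. In such bulk samples more cells of a type, more RNA per cell and expression of its markers in other cells cannot be told apart.

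*Olig2* and *Olig1*, the founding factors of the lineage, are neighbours on the plus strand of chromosome 16 (GRCm38). *Olig2* (ENSMUSG00000039830) lies at chr16:91225457-91228677 with 2 exon blocks, and *Olig1* (ENSMUSG00000046160) at chr16:91269772-91271933 with 1, 41095 bp downstream. In the Control libraries *Olig2* ranged from 8.88 to 12.4 CPM with a median of 10.8, and in *Neuid* KD from 30.8 to 35.6 CPM with a median of 34.4. The lowest *Neuid* KD library lay well above the highest Control library. The mean rose from 10.5 ± 1.33 to 33.6 ± 1.93 CPM (SD, n = 6 each), a log2 fold change of 1.67 (SE 0.0753, 95% interval 1.51 to 1.83, edgeR adjusted p = 8.82e-11).

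*Olig1*, the paralog of *Olig2*, was the most abundant factor. Its levels were 66.4 to 89.8 CPM in Control with a median of 78.8, and 199 to 228 CPM in *Neuid* KD with a median of 221, again without overlap. The mean rose from 78.2 ± 8.49 to 216 ± 11.7 CPM (SD, n = 6 each), a log2 fold change of 1.47 (SE 0.068, 95% interval 1.32 to 1.61, edgeR adjusted p = 1.29e-10). The noncoding gene Gm15966 on the opposite strand shares 157 nt of exon with *Olig1* and averaged 0.674 ± 0.733 in Control against 0.675 ± 0.842 CPM in *Neuid* KD. Within a library the log2 ratio of *Olig2* to *Olig1* was -2.93 to -2.78 in Control and -2.79 to -2.57 in *Neuid* KD, ranges that meet at their ends. The ratio rose by 0.18 ± 0.0368 (SE), so that *Olig2* gained slightly more than *Olig1* (two-sided exact permutation test, p = 0.00433, Benjamini-Hochberg adjusted over 9 pairs 0.0117).

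The nearest tested protein-coding genes on either side of the pair did not pass the test. *Ifnar2*, an interferon receptor gene 100.8 kb beyond *Olig1*, averaged 5.45 ± 0.551 in Control against 5.48 ± 0.611 CPM in *Neuid* KD (SD, n = 6 each, log2 fold change 0.01, edgeR adjusted p = 0.986). On the far side of *Olig2*, 4932438H23Rik at 130.3 kb moved by -0.13 on the log2 scale (edgeR adjusted p = 0.951). Across all 9 factors the nearest tested protein-coding genes on each side, wholly outside the factor and not factors themselves, numbered 16. Of these 0 passed the edgeR test, beside 8.72% of all genes tested. At an unadjusted p under 0.05 it was 1 of the 16. With so few genes, 0 passed cannot be told from a share of 8.72%. Some of the 16 were also low, such as 4932438H23Rik at a mean of 0.915 in Control and 0.852 CPM in *Neuid* KD. Genes that overlap a factor were not counted, among them *Inpp5a*, which overlaps *Nkx6-2* and passed as higher (edgeR adjusted p = 0.0333).

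*Sox8*, a SoxE factor that acts with *Sox10* in precursors, is on the minus strand at chr17:25565892-25570686 with 3 exon blocks (ENSMUSG00000024176). It ranged from 10.4 to 13.6 CPM in Control with a median of 11.5 and from 22.6 to 38.3 CPM in *Neuid* KD with a median of 27.1. The groups did not overlap, but the *Neuid* KD libraries were more spread, with replicate 6 at 38.3 CPM and the next at 30.1. The mean rose 2.42-fold from 11.7 ± 1.19 to 28.2 ± 5.63 CPM (SD, n = 6 each), a log2 fold change of 1.27 (SE 0.112, 95% interval 1.03 to 1.51, edgeR adjusted p = 4.1e-07). The antisense gene 2810468N07Rik shares 329 nt of exon with *Sox8* and averaged 1.08 ± 0.275 in Control against 1.42 ± 0.444 CPM in *Neuid* KD (SD, n = 6 each, edgeR adjusted p = 0.631). The strand setting of the counting is not given in the sources used here.

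*Sox6*, the SoxD factor that keeps precursors undifferentiated, spans chr7:115470872-116038796 on the minus strand with 25 exon blocks (ENSMUSG00000051910). Control libraries held 17.1 to 21.1 CPM with a median of 19.5, and *Neuid* KD libraries 36.1 to 41.3 CPM with a median of 38.4. All 6 *Neuid* KD libraries were above all 6 Control libraries. The mean rose from 19.3 ± 1.59 to 38.3 ± 2.00 CPM (SD, n = 6 each), a log2 fold change of 0.99 (SE 0.0591, 95% interval 0.86 to 1.11, edgeR adjusted p = 2.59e-09). In each of the 4 factors that rose the groups were apart, which held for 5.7% of all genes tested, or 4.13% counting those higher in *Neuid* KD.

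Promoter windows of 300 bases (250 before and 50 after the transcription start, RefSeq, GRCm38.p6) were read for the factors that moved together. RefSeq entries matched for 6 of the 9 factors, among them *Olig2*, *Sox8* and *Sox6*. The 250 bases before the start are shown 5′ to 3′ on the strand of the gene, since these 3 genes rose together. Capitals mark a match to ACAAAG or ACAATG, core sequences of the kind Sox proteins bind, or to CATATG or CAGCTG, E-boxes of the kind basic helix-loop-helix factors bind, on either strand.
Olig2, chr16:91225300-91225549, plus strand: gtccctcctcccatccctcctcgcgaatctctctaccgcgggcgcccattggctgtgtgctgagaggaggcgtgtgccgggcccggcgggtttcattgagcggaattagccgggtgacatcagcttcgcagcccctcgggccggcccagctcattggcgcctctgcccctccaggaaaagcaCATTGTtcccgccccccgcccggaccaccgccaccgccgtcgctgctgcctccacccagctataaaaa
Sox8, chr17:25570687-25570936, minus strand: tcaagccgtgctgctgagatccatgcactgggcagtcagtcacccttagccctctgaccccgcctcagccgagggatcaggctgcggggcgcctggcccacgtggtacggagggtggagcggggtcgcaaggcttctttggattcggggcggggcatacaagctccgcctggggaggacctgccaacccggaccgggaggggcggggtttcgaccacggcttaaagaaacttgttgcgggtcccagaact
Sox6, first start, chr7:116038745-116038994, minus strand: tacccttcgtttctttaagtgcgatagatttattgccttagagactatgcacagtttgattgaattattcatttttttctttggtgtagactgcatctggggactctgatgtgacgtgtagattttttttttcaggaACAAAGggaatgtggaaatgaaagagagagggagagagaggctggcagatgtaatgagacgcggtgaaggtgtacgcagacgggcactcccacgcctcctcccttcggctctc

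The *Olig2* window held 1 ACAATG, written as CATTGT on the plus strand, and the window at the first *Sox6* start held 1 ACAAAG. None of the 4 searched motifs was in the *Sox8* window. Over 32851 RefSeq promoter windows of the same length, 12.57% held ACAATG, 18.71% ACAAAG, 16.3% CAGCTG and 3.915% CATATG. The general E-box CANNTG, of which CATATG and CAGCTG are cases, was in 72.31% of all windows, 0 times in that of *Olig2*, 1 time in that of *Sox8* and 2 times in that of the first *Sox6* start. The *Olig2* and *Sox8* windows were rich in CpG, with 25 and 21 CpG against a median of 7 over all windows. None of the 4 motifs spelled out in full was common to the 3 windows shown, although other *Sox6* starts in the table also held ACAATG.

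*Sox10*, the SoxE factor that is required for myelin gene expression, was low. It lies on the minus strand at chr15:79154908-79165240 with 5 exon blocks (ENSMUSG00000033006). Its levels were 0.334 to 2.31 CPM in Control with a median of 0.849 and 0.621 to 1.6 CPM in *Neuid* KD with a median of 1.13. The groups overlapped. The means were 1.04 ± 0.753 and 1.12 ± 0.434 CPM (SD, n = 6 each), with a log2 fold change of 0.09 (SE 0.475, 95% interval -0.91 to 1.10, edgeR adjusted p = 0.954).

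The difference between *Sox10* and its partners was tested as a log2 ratio within each library, with 0.5 CPM added to each gene. The ratio of *Olig2* to *Sox10* was 2.04 to 3.95 in Control and 4.08 to 4.97 in *Neuid* KD, without overlap. It rose by 1.49 ± 0.353 (SE, exact permutation test, two-sided, with p = 0.00216 as the lowest value 6 against 6 libraries can give, adjusted 0.00974). The ratio of *Sox10* to *Sox8* fell by 1.07 ± 0.311 (exact permutation p = 0.00649, adjusted 0.0117). On this scale the 2 SoxE genes differed in their change over all libraries, but less so where chemosensory reads were few. The ratio of *Sox10* to *Sox8* differed by -1.21 in libraries with at least 100 CPM on chemosensory genes and by -0.60 in the others. That of *Olig2* to *Sox10* differed by 1.58 and 0.98. In the libraries under 100 CPM the edgeR log2 fold changes were 0.99 for *Sox10*, on few reads, and 1.11 for *Sox8*. With 0.1 CPM added in place of 0.5, neither of these ratios passed, at adjusted exact p-values of 0.0584 and 0.074. The ratio of *Sox6* to *Sox10* differed by 0.82 ± 0.346 (exact permutation p = 0.0433, adjusted 0.0649) and did not pass, whereas it passed without Control replicate 3 (0.99, adjusted 0.0325) or *Neuid* KD replicate 1 (0.92, adjusted 0.0445).

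*Nkx2-2*, a homeodomain factor that promotes the step from precursor to oligodendrocyte, is at chr2:147177546-147194243 on the minus strand (ENSMUSG00000027434). It ranged from 0.1 to 1.24 CPM in Control with a median of 0.436, and from 0.369 to 0.737 CPM in *Neuid* KD with a median of 0.487. The *Neuid* KD range lay inside the Control range. The log2 fold change was -0.14 (SE 0.576, 95% interval -1.36 to 1.08, edgeR adjusted p = 0.941). *Nkx2-2os*, an antisense gene that shares 278 nt of exon with it, had 0 reads in all 12 libraries.

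*Nkx6-2*, a homeodomain factor of patterning and late maturation, is at chr7:139579376-139582797 on the minus strand (ENSMUSG00000041309). Levels were 0.136 to 1.25 CPM in Control with a median of 0.523 and 0 to 0.890 CPM in *Neuid* KD with a median of 0.402, with overlap. *Neuid* KD replicate 3 had 0 reads, which allows up to 0.140 CPM at 3 counts, for counting error only. The log2 fold change was -0.37 (SE 0.770, 95% interval -2.0 to 1.25, edgeR adjusted p = 0.878). *Inpp5a*, an inositol phosphatase gene on the opposite strand, shares 246 nt of exon with *Nkx6-2* and was itself higher, from 22.9 ± 1.08 to 26.4 ± 2.07 CPM (SD, n = 6 each, edgeR adjusted p = 0.0333), so reads in the shared stretch cannot be told apart if the counting ignored strand. The ratio of *Nkx2-2* to *Nkx6-2* differed by 0.18 ± 0.273 (exact permutation p = 0.511, adjusted 0.511).

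*Myrf*, a membrane-bound factor that switches on the myelin programme, did not pass either. It lies at chr19:10208272-10240748 on the minus strand with 26 exon blocks (ENSMUSG00000036098). Control libraries had 0.901 to 5.21 CPM with a median of 2.03 and *Neuid* KD libraries 0.515 to 3.54 CPM with a median of 1.35, with overlap. The means were 2.65 ± 1.92 and 1.59 ± 1.15 CPM (SD, n = 6 each), with a log2 fold change of -0.77 (SE 0.514, 95% interval -1.86 to 0.32, edgeR adjusted p = 0.514). Relative to *Myrf*, *Sox10* was higher by 0.70 ± 0.330 in *Neuid* KD on the log2 ratio scale, which did not pass after adjustment (exact permutation p = 0.0649, adjusted 0.0835). It passed without Control replicate 2 (0.88, exact permutation adjusted p = 0.039) or *Neuid* KD replicate 1 (0.84, adjusted 0.0445).

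*Zfp488*, a zinc finger co-repressor that works with *Olig2* in differentiation, is at chr14:33967070-33978764 on the minus strand (ENSMUSG00000044519). It had 0 to 1.19 CPM in Control with a median of 0.630 and 0.0468 to 1.77 CPM in *Neuid* KD with a median of 0.5, with overlap. Control replicate 5 had 0 reads, which allows up to 0.139 CPM at 3 counts. The means were 0.585 ± 0.474 and 0.602 ± 0.626 CPM (SD, n = 6 each), with a 95% interval for the log2 fold change of -1.54 to 1.53 (edgeR adjusted p = 1). The ratio of *Olig2* to *Zfp488* rose by 1.66 ± 0.445 (exact permutation p = 0.00649, adjusted 0.0117), and with 0.1 CPM added in place of 0.5 it did not pass (1.64, adjusted 0.117).

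**Figure D2:**
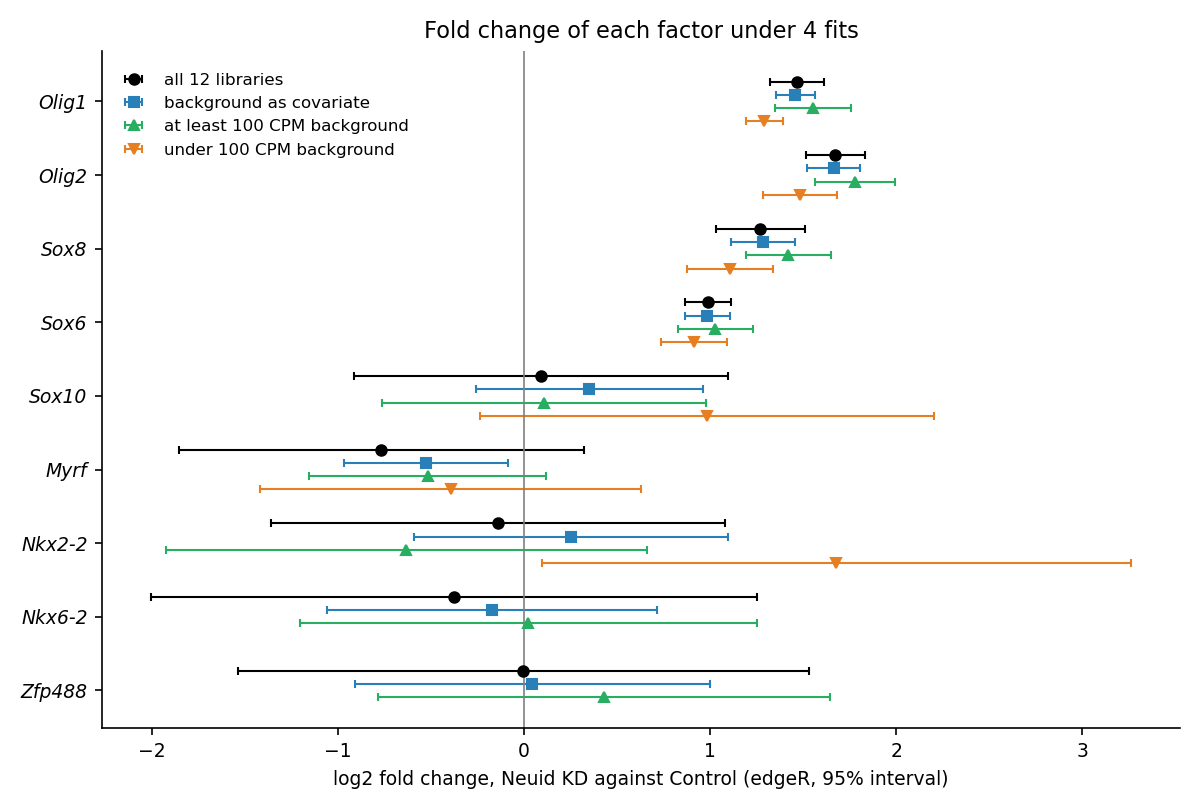
log2 fold change of each factor, *Neuid* KD against Control, with its 95% interval (edgeR), in all 12 libraries, with the chemosensory reads as a covariate, and in the libraries with at least or under 100 CPM on chemosensory genes. *Olig1*, *Olig2*, *Sox8* and *Sox6* stay between 0.91 and 1.78 in all 4 fits, while the intervals of the other 5 factors are wide. *Nkx6-2* and *Zfp488* could not be tested in the libraries under 100 CPM.

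Over the 12 libraries pooled, the levels of the 5 low factors were correlated with the chemosensory reads of the library. For *Myrf* the Control libraries that gave 100 CPM or more to chemosensory genes averaged 3.53 CPM and the others 0.913 CPM, and the *Neuid* KD libraries averaged 2.48 and 0.705 CPM. The same order held in both groups for *Sox10* (1.38 and 0.375 CPM in Control, 1.48 and 0.752 in *Neuid* KD), *Nkx6-2* (0.746 and 0.239, 0.755 and 0.149) and *Zfp488* (0.745 and 0.267, 1.02 and 0.183). *Nkx2-2* had it only in Control (0.760 and 0.166 CPM), and in *Neuid* KD its means were 0.483 and 0.530 CPM. Across the 12 libraries log2(CPM + 0.1) of *Myrf* correlated with the log2 chemosensory CPM at Pearson r = 0.932 (permutation p = 4e-05, adjusted over 5 factors 0.0002) and Spearman rho = 0.951 (permutation p = 2e-05, adjusted 0.0001). Without the 2 libraries farthest from the median chemosensory level r was 0.923. The others gave r of 0.833 for *Sox10* (permutation p = 0.00136, adjusted 0.00227, rho 0.839 with p = 0.00122 and adjusted 0.00203, r 0.784 without 2), 0.840 for *Nkx6-2* (permutation p = 0.00078, adjusted 0.00195, rho 0.790 with p = 0.00308 and adjusted 0.00385, r 0.804 without 2), 0.766 for *Zfp488* (permutation p = 0.00718, adjusted 0.00897, rho 0.853 with p = 0.00068 and adjusted 0.0017, r 0.861 without 2) and 0.670 for *Nkx2-2* (permutation p = 0.0157, adjusted 0.0157, rho 0.720 with p = 0.0104 and adjusted 0.0104, r 0.623 without 2). What the reads on chemosensory genes are was not tested.

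**Figure D3:**
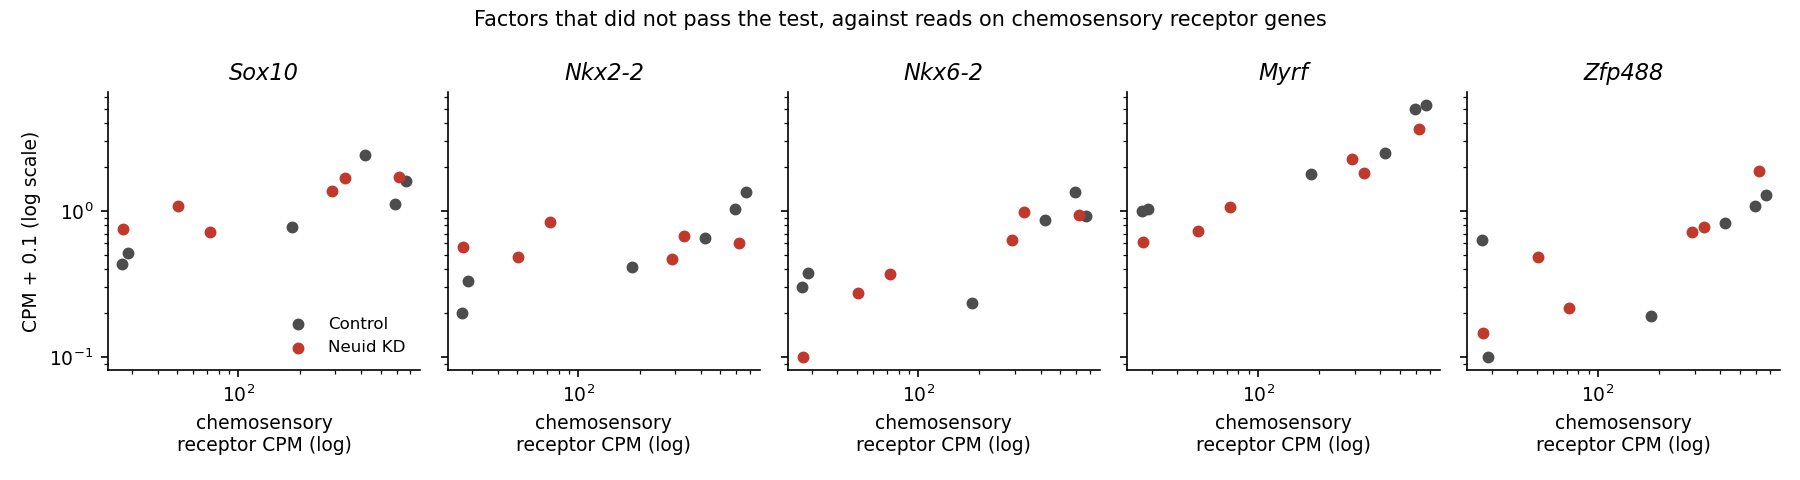
CPM + 0.1 (log scale) of the 5 factors that did not pass against the CPM on chemosensory receptor genes (log scale), 1 point per library, Control grey and *Neuid* KD red. Over the 12 libraries pooled, levels follow the chemosensory reads most closely for *Myrf* (r = 0.932) and least for *Nkx2-2* (r = 0.670), whose *Neuid* KD libraries show no higher level at high chemosensory reads (0.483 against 0.530 CPM on average).

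Within the 5 libraries under 100 CPM on chemosensory genes the low factors rested on few reads. *Sox10* had 9 to 10 reads in the 2 Control libraries and 14 to 28 in the 3 *Neuid* KD libraries, and *Nkx2-2* had 3 to 5 and 10 to 19. In that fit *Nkx2-2* had a log2 fold change of 1.68 (95% interval 0.10 to 3.26) and *Sox10* of 0.99 (95% interval -0.23 to 2.20), and neither passed the edgeR test (adjusted p = 0.196 and 0.369). In the 7 libraries with at least 100 CPM the log2 fold changes were -0.63 for *Nkx2-2* and 0.11 for *Sox10*. *Nkx2-2* thus changed sign between the 2 classes of library.

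The 4 factors that rose did so in both classes. The log2 fold change was 1.78 where chemosensory genes took 100 CPM or more and 1.48 in the others for *Olig2*, and 1.55 and 1.29 for *Olig1*. For *Sox8* it was 1.42 and 1.11, and for *Sox6* 1.03 and 0.91. Each of these 8 values passed the edgeR test, with the highest adjusted p at 1.47e-08 for *Sox8* in the libraries under 100 CPM.

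Levels of different factors were compared as CPM per kb of exon. In Control *Olig1* led at 36.2 ± 3.93 CPM per kb (SD, n = 6), followed by *Olig2* at 4.14 ± 0.527 and *Sox8* at 3.74 ± 0.382, whose libraries overlapped. *Sox6* was lower at 1.30 ± 0.107 CPM per kb, apart from *Sox8* above it and *Sox10* below it. *Sox10* (0.342 ± 0.247), *Myrf* (0.310 ± 0.224), *Nkx6-2* (0.302 ± 0.232), *Nkx2-2* (0.195 ± 0.154) and *Zfp488* (0.136 ± 0.110) formed the lower end, and each overlapped its neighbour. In *Neuid* KD the first 5 places were the same, with *Olig1* at 100.04 ± 5.4, *Olig2* at 13.3 ± 0.761, *Sox8* at 9.06 ± 1.81, *Sox6* at 2.58 ± 0.135 and *Sox10* at 0.366 ± 0.142 CPM per kb. As a group the chemosensory genes had 0.00442 to 0.110 CPM per kb in the 12 libraries. The highest of these values was below the mean of every factor in either group, but this did not hold within each library. In Control replicate 6 *Zfp488* had 0.0210 CPM per kb against 0.0303 for the chemosensory genes. *Zfp488* in Control replicate 5 and *Nkx6-2* in *Neuid* KD replicate 3 had 0 reads.

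**Figure D4:**
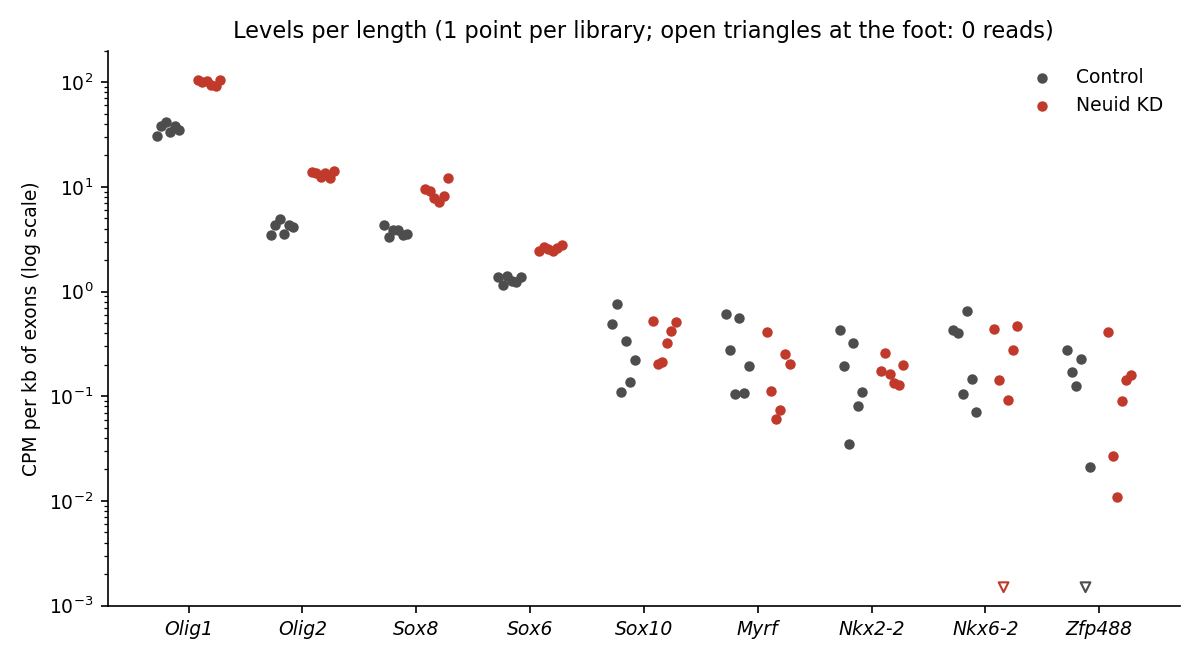
CPM per kb of exon (log y axis) of each factor, 1 point per library, Control grey and *Neuid* KD red, with open triangles at the foot for libraries with 0 reads. *Olig1* is the highest in both groups (36.2 and 100.04 CPM per kb on average), and *Sox10* to *Zfp488* lie below 1 CPM per kb in every library.

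The wider set of regulators of the lineage changed in part. Of 30 regulators 29 were tested, 17 were higher, 1 was lower and 11 did not pass. Over all genes tested 6.31% were higher and 2.42% lower. The median log2 fold change was 0.24 against -0.03 over all genes tested. *Hes5*, a Notch effector that holds progenitors back, rose from 1.86 ± 0.426 to 6.03 ± 1.25 CPM (SD, n = 6 each, log2 fold change 1.69, edgeR adjusted p = 4.38e-06). The 3 most abundant regulators, *Tcf4*, *Nfib* and *Zeb2*, had log2 fold changes of 0.03, 0.06 and 0.05 and did not pass (edgeR adjusted p = 0.86, 0.786 and 0.833).

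Genes of oligodendrocyte precursors were split. All 15 were tested, 6 were higher, none was lower and 9 did not pass, beside 6.31% higher and 2.42% lower over all genes tested. The median log2 fold change was 0.16, while the summed level went from 811 to 996 CPM in Control to 1553 to 1848 CPM in *Neuid* KD. *Ptprz1*, a receptor phosphatase that astrocytes also carry, had the highest mean level of the 15 in both groups. It rose from 428 ± 47.8 to 1096 ± 86.4 CPM (SD, n = 6 each, log2 fold change 1.36, edgeR adjusted p = 6.73e-10). Most of the rise in the sum, from 918 to 1730 CPM on average, was *Ptprz1*. *Cspg5*, a neural proteoglycan, and *Fyn*, a kinase, rose by 0.50 and 0.31 on the log2 scale (edgeR adjusted p = 9.42e-06 and 0.00137). *Pdgfra*, the growth factor receptor that defines these precursors, had 6.69 ± 1.33 and 9.17 ± 3.27 CPM and did not pass (log2 fold change 0.44, edgeR adjusted p = 0.223).

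*Olig2* and *Sox10* were each set against this precursor receptor, and only the ratio of *Olig2* passed. The log2 ratio of *Olig2* to *Pdgfra* was -0.02 to 1.20 in Control and 1.31 to 2.39 in *Neuid* KD, without overlap, and rose by 1.26 ± 0.243 (SE, exact permutation p = 0.00216, adjusted 0.00974). The ratio of *Sox10* to *Pdgfra* differed by -0.22 ± 0.267 (exact permutation p = 0.494, adjusted 0.511). *Sox10* had only 9 to 54 reads in a library, and in the libraries under 100 CPM on chemosensory genes this ratio differed by 0.23.

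No myelin gene passed as higher. Of 18 myelin and mature oligodendrocyte genes 10 had enough reads to be tested. Of these 0 were higher and 2 were lower, beside 6.31% higher and 2.42% lower over all genes tested. Their median log2 fold change was -0.43, and the 18 genes summed to 36.3 to 52.3 in Control against 28.7 to 46.8 CPM in *Neuid* KD. *Mbp*, a major myelin protein gene, fell from 8.11 ± 1.12 to 5.14 ± 0.813 CPM (SD, n = 6 each, log2 fold change -0.66, edgeR adjusted p = 0.000973). *Trf*, which encodes transferrin, fell from 2.40 ± 0.780 to 0.795 ± 0.391 CPM (log2 fold change -1.62, edgeR adjusted p = 0.00452). *Cnp*, an enzyme gene of myelin, had a log2 fold change of 0.10 and did not pass (edgeR adjusted p = 0.636).

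Markers of other cells that use these factors moved with them in part. Among astrocyte markers the median log2 fold change was 1.32, with *S100b* at 2.64, *Apoe* at 2.28, *Gja1* at 2.27, *Aqp4* at 2.10 and *Acsbg1* at 2.06, so that several exceeded the 1.67 of *Olig2*. Their part in the rise of *Olig1*, *Olig2*, *Sox8* and *Sox6* was not tested. Of 9 interneuron markers of the medial ganglionic eminence, where *Sox6* is used, 7 were tested and 3 were higher, beside 6.31% of all genes tested. The 9 summed to 101 to 114 in Control against 120 to 140 CPM in *Neuid* KD. Most of that difference was *Erbb4*, and without it, a choice made after seeing the data, the sum was 79.7 to 91.3 in Control against 83.8 to 93.3 CPM in *Neuid* KD, with overlap. *Erbb4*, the neuregulin receptor, rose by 0.80 and *Satb1* by 0.21 on the log2 scale (edgeR adjusted p = 1.79e-06 and 0.0153), and *Lhx6*, the defining factor of these cells, had 19.0 ± 1.92 and 18.3 ± 1.21 CPM (edgeR adjusted p = 0.812). Their part in the change of *Sox6* was not tested.

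Microglia markers were low, with 5 of 11 tested and 0 passed, beside 8.72% of all genes tested. They summed to 14.6 to 22.4 in Control against 12.8 to 21.7 CPM in *Neuid* KD. Among them *Aif1* and *Csf1r* had log2 fold changes of -0.31 and -0.40. Of 8 cell cycle genes 0 were higher and 1 was lower, beside 6.31% higher and 2.42% lower over all genes tested. The lower gene was *Mcm6*, a replication helicase subunit, at -0.37 on the log2 scale (edgeR adjusted p = 0.000454). The proliferation markers *Mki67* and *Top2a* had log2 fold changes of -0.08 and 0.01 (edgeR adjusted p = 0.507 and 0.941). Neuron markers *Map2*, *Stmn2* and *Nefl* had -0.01, -0.07 and 0.09 (edgeR adjusted p = 0.964, 0.503 and 0.331).

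**Figure D5:**
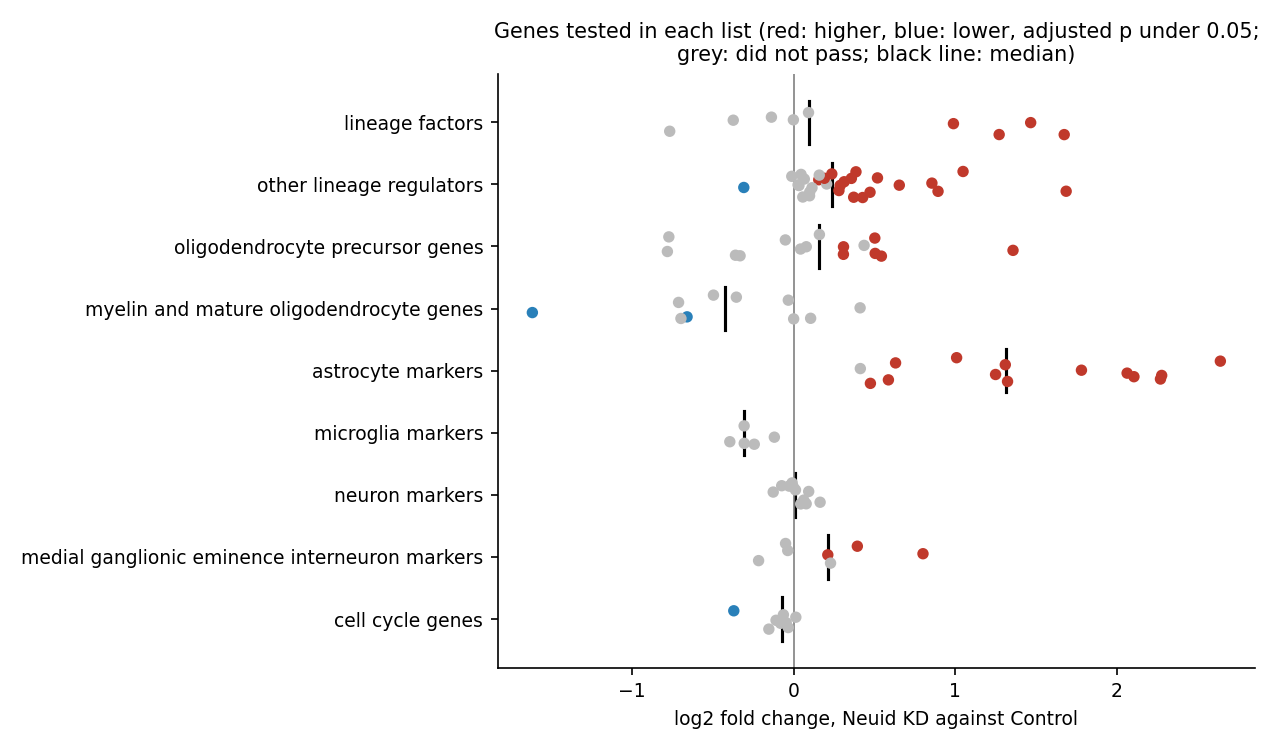
log2 fold change, *Neuid* KD against Control, of every gene tested in each list (red, higher, blue, lower at an adjusted p under 0.05, grey, not passed), with the median of the list as a black line. Lineage factors split into 4 genes near or above 1 and 5 near or below 0, astrocyte markers lie mostly to the right (median 1.32) and myelin genes mostly to the left (median -0.43).

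The genes whose profile over the 12 libraries was most like each factor were found by the root-mean-square distance between log2 CPM values centred on each gene's mean, over 15205 genes that averaged 1 CPM or more. The nearest to *Olig1* were *Plpp3*, *Fabp7* and *Ndrg2* at distances of 0.0664, 0.0692 and 0.0722. Genes near *Olig2* included *Ndrg2* at 0.0841 and *Olig1* at 0.106. *Sox8* was nearest to *Etv4*, *Cdh4* and *Myo10* at 0.140, 0.171 and 0.182, and *Sox6* to *Itgb8*, *Cybrd1* and *Gm3764* at 0.0871, 0.105 and 0.111. Genes near *Sox10* included *Gm48751* and *Kif6* at 0.233 and 0.239, and with 9 to 54 reads of *Sox10* in a library its distances hold more counting noise and cannot be compared with those of the other factors. *Olig2* had *Olig1* among its 3 nearest genes, whereas *Olig1*, *Sox8*, *Sox6* and *Sox10* had no other factor among their 3.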

How the data were processed

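RNA-seq was made from 12 libraries of primary mouse hippocampal cultures, 6 Control and 6 *Neuid* KD, with a stranded total RNA kit for low input and 50 bp single reads. The deposited values are raw read counts per gene, which the authors made by alignment with STAR to mm10 (GRCm38) and counting with featureCounts. The annotation release and the strand setting are not given in the sources used here. The authors tested with DESeq2 and RUVseq.

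Groups were taken from the sample titles. Genes with enough reads by filterByExpr (minimum count 10) were scaled by TMM, and glmQLFTest of edgeR 4.0.16 in R 4.3.3 was run on them with group as the only term and Benjamini-Hochberg adjustment. DESeq2 1.42.0, 1 RUVs factor, other scalings and filters, a covariate of reads on chemosensory genes (and the libraries on either side of 100 CPM), offsets for GC content and length, a replicate block and leaving out each library were the alternatives. Standard errors are the log2 fold change over the root of F. Ratios of a pair of genes within a library used 0.5 CPM added to each and a two-sided exact permutation test over the 924 arrangements. Symbols, positions and exon lengths came from GENCODE annotation of GRCm38, for 55230 of 55471 genes. The edgeR and DESeq2 fits were tested on simulated counts, drawn from the means and sizes of these libraries with a set of genes changed by known folds. The libraries of a group differed by more than counting noise in every pair, so none was treated as a duplicate.

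The factors and gene lists were chosen with earlier results of these data known, so the lists are described by counts and medians and no set was tested. The text names the 9 factors, *Neuid*, *Pdgfra*, the 3 most abundant tested genes of each list, genes of a list that passed and moved by more than 1 on the log2 scale, and the 3 genes nearest in profile to *Olig2*, *Sox10* and each factor that passed. *Ifnar2*, 4932438H23Rik and the overlapping genes were named for their position. Limits for 0 reads cover counting error only. A few genes that this rule names are not reported here.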

Additional observations from a re-analysis of the deposited data

Results flagged for a closer look

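Of 52 groups of 6 values examined, 3 held a library far from its group by Dixon's test, where chance gives about 1 in 20. *Zfp488* stood at 1.77 CPM in *Neuid* KD replicate 1, against 0.0468 to 0.680 CPM in the other 5 *Neuid* KD libraries. The log2 ratio of *Sox10* to *Pdgfra* was -1.23 in Control replicate 2, against -2.87 to -2.26 in the other 5 Control libraries. The summed level of the other lineage regulators was 3608 CPM in *Neuid* KD replicate 1, against 4321 to 4504 CPM in the other 5 *Neuid* KD libraries.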

How the results depend on the processing

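*Olig1*, *Olig2*, *Sox8* and *Sox6* passed the test as higher, and 0 factors as lower, under all alternatives run. Their log2 fold changes ran over 1.29 to 1.55, 1.48 to 1.78, 1.11 to 1.42 and 0.91 to 1.03 with adjusted p-values of at most 1.2e-08, 5.87e-08, 3.58e-06 and 3.63e-07. *Myrf* kept its sign and did not pass in any (adjusted p 0.114 to 0.845). *Sox10*, *Nkx2-2*, *Nkx6-2* and *Zfp488* passed in none of the fits that tested them (adjusted p 0.369 to 0.998, 0.196 to 1, 0.656 to 0.999 and 0.662 to 1), and DESeq2 gave them no adjusted p. *Nkx2-2*, *Nkx6-2* and *Zfp488* were not tested with the filter of 1 CPM in 6 libraries.

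The sign of the log2 fold change turned for *Nkx2-2* with RUVs (0.32), with the chemosensory covariate (0.25), in the libraries under 100 CPM (1.68) and with the replicate block without (0.20) or with GC and length offsets (0.23), for *Nkx6-2* in the libraries with at least 100 CPM (0.024), and for *Zfp488* with RUVs (0.13), with the covariate (0.046), in the libraries with at least 100 CPM (0.43) and with no filter (0.026). The cause was not tested. Leaving out each library in turn gave -0.090 to 0.50 for *Sox10*, -0.36 to 0.25 for *Nkx2-2*, -0.73 to 0.012 for *Nkx6-2* and -0.72 to 0.32 for *Zfp488*.

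Genes higher numbered 651 in the libraries with at least 100 CPM, 711 with no filter, 477 with a log2 fold change above 0.5 and 822 to 1208 with each library left out. Genes lower numbered 1259 with upper-quartile scaling, 1004 with DESeq2, 981 with RUVs, 987 with the covariate, 205 and 799 in the libraries with at least and under 100 CPM, 229 with no filter, 802 with the 1 CPM filter, 155 past a log2 fold change of 0.5 and 355 to 780 with each library left out. The fewest genes higher came without *Neuid* KD replicate 2 (822) and the most genes lower without *Neuid* KD replicate 1 (780). With no filter the median log2 fold change of all genes was -0.14.

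With 0.1 CPM added in place of 0.5, the ratios of *Sox10* to *Sox8* (-0.99), *Olig2* to *Sox10* (1.41) and *Olig2* to *Zfp488* (1.64) no longer passed after adjustment. Leaving out each library gave 0.52 to 0.88 for *Sox10* to *Myrf* and 0.58 to 0.99 for *Sox6* to *Sox10*, some of which passed. The ratio of *Nkx2-2* to *Nkx6-2* was -0.39 and 0.83 in the libraries with at least and under 100 CPM, and that of *Sox10* to *Pdgfra* 0.23 in those under 100 CPM. The neuron marker sum differed by -236 CPM with upper-quartile scaling, by -43.0 and -46.5 CPM in the libraries with at least and under 100 CPM, and by -80.9 to 211 CPM with each library left out.

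Same-numbered libraries had correlations of deviations from -0.64 to 0.77. With *Neuid* KD replicate 1, the correlation was 0.78 for Control replicate 4 and -0.78 for Control replicate 3. Of these 3 libraries, only Control replicate 3 had under 100 CPM on chemosensory genes. The correlations therefore cannot tell whether the numbers pair the samples. With the replicate block 1299 genes were higher and 542 lower, with the same count of 4 factors higher. In a sign-flip test within replicate numbers the ratio of *Sox6* to *Sox10* (0.82) had an adjusted p of 0.0469. The ratios of *Olig2* to *Olig1*, *Sox10* to *Sox8* and *Olig2* to *Sox10* had the same value, as 6 numbers allow few p-values. The sign-flip test holds only if the numbers pair the samples, so it adds no support for the ratio of *Sox6* to *Sox10*.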
